A study of Mus musculus with 6 samples.

Results

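Ptprc, Cd68, Lyz2, Csf1r, Adgre1, Cd14, Trem2, Tyrobp, Fcer1g and Csf1 are genes commonly read as markers of macrophages and other leukocytes, or, in the case of Csf1, as the growth factor that macrophages depend on. These 10 genes were chosen by name, and each matched a single entry among the 55487 gene identifiers of the deposited counts. Their levels and changes were measured by bulk RNA-sequencing of primary cells from the skin of C57BL/6 mice, enriched with magnetic beads against CD31, the endothelial surface protein encoded by Pecam1. Cells from 4 to 6 mice aged 2 to 3 months were used for an isolation. Medium with 5 mmol/L glucose was given to the normal glucose group (n = 3), and medium with 20 mmol/L glucose to the high glucose group (n = 3). Both exposures lasted 48 hours, and the labels give the groups no other difference. The comparison asks which transcripts differ under a glucose concentration that models the hyperglycemia of diabetes. The labels number the samples of each group 1 to 3, and the study's figure legends count the replicates of this experiment as mice. Since the labels describe cells from several mice in an isolation and do not say that the samples were separate cultures, p-values measure the spread between these samples, which may be in part technical.

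Macrophages are phagocytes that clear debris and microbes and take part in the repair of skin wounds. Their survival depends largely on the receptor Csf1r, a tyrosine kinase activated by the secreted ligands Csf1 and Il34, and endothelial cells and fibroblasts are among the known sources of Csf1. Trem2 and many Fc and lectin receptors of myeloid cells lack a signaling tail of their own and act through adaptors, Tyrobp in the case of Trem2 and Tyrobp or Fcer1g for others, whereas Cd14 takes up bacterial lipopolysaccharide from the carrier Lbp and hands it to the complex of Tlr4 and Ly96.

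The data did not show the full signature that the name macrophage marker implies. Tyrobp, an adaptor that macrophages express abundantly, had 0 counts in all 6 samples. Adgre1, which encodes the surface receptor widely used to stain mouse macrophages, was counted in 1 sample only. The same held for Ptprc, which encodes the phosphatase carried by nucleated cells of the blood lineage. The 10 genes are therefore described by name, and their transcripts are assigned to no cell type. The endothelial label was also only partly borne out by the counts. Pecam1 itself had 19, 12 and 19 counts in the normal glucose samples and 9, 13 and 18 in the high glucose samples, and Sox17, an endothelial transcription factor, was at 0 in every sample. Some other endothelial genes were counted more often. Eng had between 15854 and 22307 counts per sample, Flt1 between 4457 and 8030, and Kdr between 576 and 777. Others were at or near 0. Tie1, Cldn5, Robo4 and Emcn had at most 2, 4, 4 and 9 counts in any sample, and Esam had between 12 and 23.

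Of the 10 genes, 6 had an entry in the RefSeq promoter table for GRCm38.p6, namely Ptprc, Cd68, Lyz2, Trem2, Fcer1g and Csf1. The others are Csf1r, Adgre1, Cd14 and Tyrobp. Shown here are the 250 bases upstream of the start of Cd68, Trem2 and Csf1, the genes that were lower in high glucose and whose window held no annotated exon. Capitals mark GAGGAA, the core bound by the myeloid factor PU.1 that Spi1 encodes, and TGANTCA, on either strand. TGANTCA is a loose form of the site of AP-1 factors that allows any base at its centre. The window of Cd68 lies at chr11:69666171-69666420 on the minus strand, that of Trem2 at chr17:48346151-48346400 on the plus strand, and that of Csf1 at chr3:107760470-107760719 on the minus strand.
Cd68: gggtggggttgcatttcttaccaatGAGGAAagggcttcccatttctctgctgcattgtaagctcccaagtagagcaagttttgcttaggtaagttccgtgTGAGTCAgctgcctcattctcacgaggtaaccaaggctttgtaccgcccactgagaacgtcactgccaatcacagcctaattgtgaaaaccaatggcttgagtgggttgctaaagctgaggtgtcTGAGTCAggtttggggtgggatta
Trem2: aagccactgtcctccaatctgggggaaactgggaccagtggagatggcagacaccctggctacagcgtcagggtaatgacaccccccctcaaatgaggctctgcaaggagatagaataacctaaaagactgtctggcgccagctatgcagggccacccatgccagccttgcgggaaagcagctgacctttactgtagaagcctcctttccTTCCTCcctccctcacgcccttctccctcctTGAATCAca
Csf1: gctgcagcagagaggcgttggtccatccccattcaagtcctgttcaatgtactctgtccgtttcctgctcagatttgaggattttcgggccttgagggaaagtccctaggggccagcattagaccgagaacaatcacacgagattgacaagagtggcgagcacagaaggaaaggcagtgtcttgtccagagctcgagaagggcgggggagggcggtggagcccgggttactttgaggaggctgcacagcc

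The Cd68 window held 1 match to GAGGAA, which began 225 bases before the start used in the promoter table, and 2 matches to TGANTCA. That start lies upstream of the GENCODE start of Cd68, at 69666153 on the minus strand. In the Trem2 window, a GAGGAA match on the opposite strand, read there as TTCCTC, began 40 bases before the start. A TGANTCA match began 9 bases before the start, with A at its centre, where the Cd68 matches had G. Neither set of letters occurred in the Csf1 window. The windows of Lyz2, Fcer1g and Ptprc overlapped annotated exons and are not printed. Those of Lyz2 and Fcer1g held 0 matches to either set of letters. For Ptprc, the window at chr1:138175306-138175555 held 1 GAGGAA match and that at chr1:138175127-138175376 held 0, with 0 TGANTCA matches in each. Among all 32841 promoters of the table, 7638 (23.3%) held GAGGAA and 2217 (6.75%) held TGANTCA in a window of the same length, so the first is common. A match describes the letters only. Spi1 itself had 3, 8 and 0 counts in the normal glucose samples and 0, 0 and 2 in the high glucose samples.

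The counts summed to 120192466, 135253663 and 124212369 in normal glucose replicates 1 to 3. In high glucose replicates 1 to 3 they summed to 146881356, 121930179 and 139967043. At this depth, 3 counts, the upper limit that a count of 0 allows, correspond to between 0.0211 and 0.0258 CPM (counts per 1000000 of the library total, which is scaled here by the TMM factor). Such limits cover counting error only. A count of 0 can differ from its replicates by more than that, since Itgb2 had 23, 0 and 16 counts in the high glucose samples. Levels are compared between genes as CPM per kilobase of annotated exon, and changes within a gene as CPM.

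**Figure D1:**
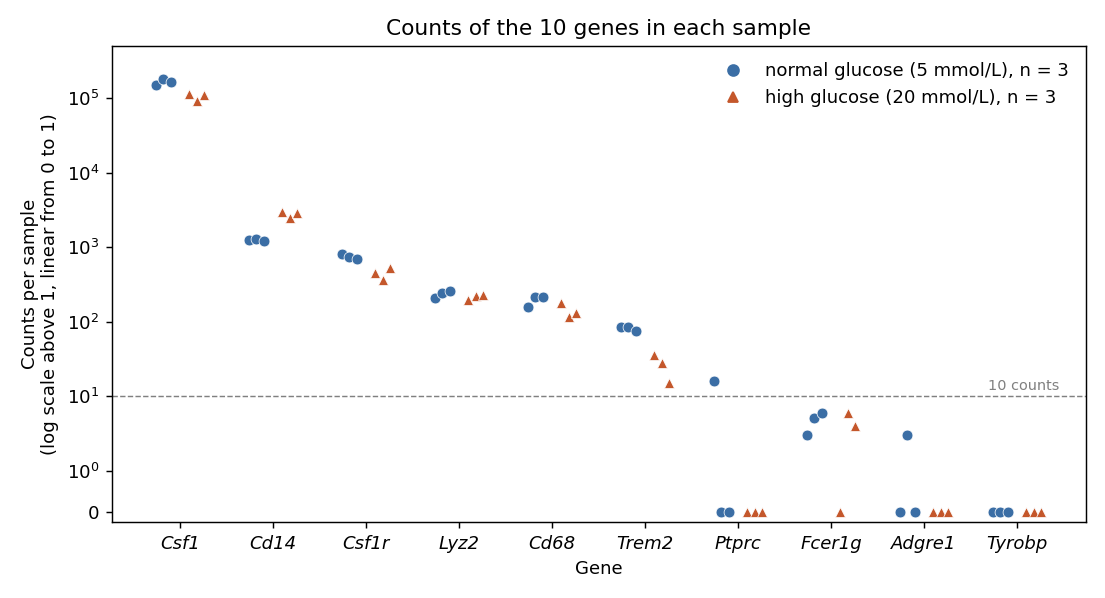
Counts of each of the 10 genes in each sample, on a log axis that is linear between 0 and 1, with circles for the 3 normal glucose and triangles for the 3 high glucose samples. Csf1 lies between 91797 and 178096 counts, Cd14, Csf1r, Lyz2, Cd68 and Trem2 lie above the dashed line at 10 counts in every sample, and Fcer1g, Adgre1, Tyrobp and Ptprc lie below it, except for Ptprc in normal glucose replicate 1 (16 counts).

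The 10 genes ranged from undetected to highly abundant. Csf1 was the most abundant per length, at 235 ± 6.74 CPM per kilobase in normal and 151 ± 1.35 in high glucose (SD, n = 3 each), and its mean level over the 6 samples lay at percentile 98.95 of the tested genes. Cd14 came next, at 5.47 ± 0.320 and 12.2 ± 0.0259 CPM per kilobase (SD, n = 3 each), at percentile 73.5. Lyz2, Cd68 and Csf1r followed with 1.35 ± 0.146, 1.16 ± 0.167 and 0.973 ± 0.112 CPM per kilobase in normal glucose (SD, n = 3 each), below the median tested gene at 2.53. In normal glucose the samples of Lyz2 and Cd68 overlapped on this scale, as did those of Cd68 and Csf1r, so the order of these neighbours was not resolved. In high glucose they were at 1.25 ± 0.206, 0.843 ± 0.120 and 0.585 ± 0.0742 CPM per kilobase, and neighbours in this order no longer overlapped. Trem2 was far lower, at 0.125 ± 0.0105 CPM per kilobase in normal glucose and 0.0404 ± 0.0155 in high glucose, at percentile 9.645. Fcer1g had 0.0404 ± 0.0131 and 0.0310 ± 0.0296 CPM per kilobase, which lay below every Trem2 sample in normal glucose and overlapped Trem2 in high glucose. Ptprc, Adgre1 and Tyrobp could not be ordered at these counts.

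**Figure D2:**
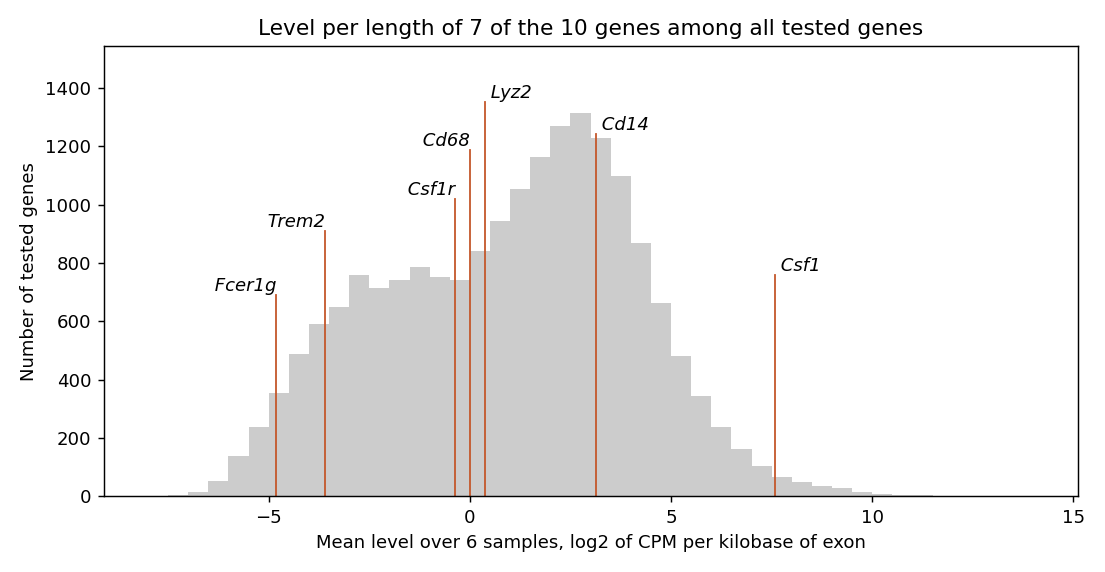
Histogram of the mean level of the tested genes over the 6 samples, as log2 of CPM per kilobase of exon, with vertical lines at the levels of 7 of the 10 genes. Csf1 sits in the upper tail, Cd14 to the right of the peak, Lyz2, Cd68 and Csf1r close together to its left, and Trem2 and Fcer1g in the lower tail. Line heights carry no value.

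Of the 10 genes, 6 passed the filter on low counts, each with at least 10 counts in all 6 samples. In high glucose 4 of these were lower (Csf1, Csf1r, Trem2 and Cd68), 1 was higher (Cd14), and Lyz2 did not pass the threshold of an adjusted p of 0.05. Cd68 kept its call in 10 of 17 alternative settings. Among all 19015 tested genes, 2757 (14.5%) were lower and 3212 (16.9%) were higher. The CPM of the groups did not overlap for 5 of the 6 genes, against 8821 (46.4%) of all tested genes. The median log2 fold change over all tested genes was 0.0062, that of the lower genes -0.50 and that of the higher genes 0.38. With calls and separated groups this frequent in the whole table, the size of each change and its error say more about these genes than the number called.

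Csf1, the ligand of Csf1r, lies on the minus strand of chromosome 3 of GRCm38 from 107741048 to 107760469 (ENSMUSG00000014599). It had 1202, 1255 and 1270 CPM in normal glucose replicates 1 to 3 and 795, 789 and 804 CPM in high glucose replicates 1 to 3, from between 91797 and 178096 counts per sample. All high glucose samples were below all normal glucose samples, and the spread within each group was small beside the gap between them. The mean fell from 1242 ± 35.6 to 796 ± 7.15 CPM (SD, n = 3 each), to 0.641 of its level in normal glucose. On the log2 scale the change was -0.64 (SE 0.049, 95% confidence interval -0.75 to -0.53, adjusted p = 5.7e-06). In bulk RNA, fewer cells of a type and less RNA per cell cannot be told apart.

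Csf1r, the receptor, lies on the plus strand of chromosome 18 from 61100598 to 61132149 (ENSMUSG00000024621). It was counted 795, 727 and 689 times in normal glucose and 444, 364 and 522 times in high glucose. These counts correspond to 6.35, 5.12 and 5.38 CPM in normal glucose and 3.13, 3.13 and 3.87 CPM in high glucose. The groups did not overlap. The log2 fold change of Csf1r was -0.73 (SE 0.119, 95% confidence interval -0.998 to -0.47, adjusted p = 0.00102). Exons of Hmgxb3 on the opposite strand cover 873 bp (15.1%) of the exonic length of Csf1r, and no source used here says whether strand was used in counting, so a share of these counts may belong to Hmgxb3. Hmgxb3 showed a log2 fold change of 0.12 (adjusted p = 0.106), opposite in sign to that of Csf1r. Over 17 alternative settings it ranged from 0.0058 to 0.13 and never passed the threshold. The ratio of Csf1r to Hmgxb3 per length went from 0.235 ± 0.0365 to 0.130 ± 0.0197 (SD, n = 3 each). Pdgfrb, a growth factor receptor gene whose end lies 15536 bp upstream of Csf1r on the same strand, showed a log2 fold change of 0.081 (adjusted p = 0.405), a sign that turned when counts were scaled by library size alone.

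The ratio of ligand to receptor transcripts did not separate the groups. Csf1 exceeded Csf1r 207, 268 and 258 fold per length in the normal glucose samples and 278, 276 and 227 fold in the high glucose samples. The groups overlapped in this ratio, which averaged 244 ± 32.6 and 260 ± 28.8 (SD, n = 3 each). Il34, the other ligand of the receptor, was at 9.19 ± 0.593 CPM per kilobase in normal and 8.90 ± 0.652 in high glucose (SD, n = 3 each). Its log2 fold change of -0.046 fell short of the threshold (adjusted p = 0.680). Csf1 exceeded Il34 25.7 ± 2.20 fold per length in normal glucose and 17.0 ± 1.18 fold in high glucose, without overlap between the groups.

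In a list of 8 other growth factor and receptor genes of the myeloid lineage, 6 were tested, of which 1 was lower and 3 were higher, with a median log2 fold change of 0.22. Over all tested genes, 14.5% were lower and 16.9% higher, and the median was 0.0062. Csf3, which encodes the growth factor of neutrophils, rose from 216, 237 and 196 counts in the normal glucose samples to 395, 294 and 363 in the high glucose samples, a log2 fold change of 0.70 (adjusted p = 5.9e-04). Flt3l, a ligand that drives dendritic cell development, rose by 0.42 on the log2 scale (adjusted p = 0.00256), with exons that share 856 bp with Gm45713 on the same strand. Kitl, the ligand of the receptor Kit and the most abundant gene of the list in CPM, showed a log2 fold change of 0.079 (adjusted p = 0.459). The shared beta receptor chain Csf2rb was higher (0.35, adjusted p = 0.0425) and the alpha chain Csf2ra lower (-0.25, adjusted p = 0.0491), but these calls were lost in 13 and 9 of 17 alternative settings. Csf2 had at most 8 counts in any sample.

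Trem2, a receptor for lipids that is expressed by macrophages and microglia, lies on the plus strand of chromosome 17 from 48346401 to 48354147 (ENSMUSG00000023992), directly downstream of the promoter window printed above. It had 85, 84 and 75 counts in the normal glucose samples and 35, 28 and 15 in the high glucose samples, or 0.679, 0.592 and 0.586 CPM and 0.247, 0.241 and 0.111 CPM. Every high glucose sample lay below every normal glucose sample, and high glucose replicate 3 was the lowest. The mean of 0.619 ± 0.0520 CPM went to 0.200 ± 0.0765 CPM (SD, n = 3 each). This was the largest fall among the 6 tested genes, with a log2 fold change of -1.63 (SE 0.271, 95% confidence interval -2.23 to -1.03, adjusted p = 0.00117), and 132 of the 2757 lower genes fell by more.

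The adaptors Tyrobp and Fcer1g were at or near 0. Tyrobp (ENSMUSG00000030579, chromosome 7 from 30413760 to 30417585, plus strand) had 0 counts in each sample. Fcer1g (ENSMUSG00000058715, chromosome 1 from 171229572 to 171234365, minus strand), the gamma chain shared by Fc receptors, had 3, 5 and 6 counts in the normal glucose samples and 0, 6 and 4 in the high glucose samples. These counts lie near the floor of 3 in both groups, so that a difference was not detectable at this depth. A list of 19 further genes of this pathway held receptors that pair with the adaptors and the kinases downstream of them. Of these, 8 were tested, 2 were lower and 0 were higher (against 14.5% and 16.9% of all tested genes), with a median log2 fold change of -0.32. Fcgr3 and Fcgr4 reached 10 counts in every normal but not in every high glucose sample, so the median carries no weight of its own. The receptors Trem1, Treml2, Clec5a and Sirpb1a and the kinase Btk were at 0 in every sample. Lyn, a Src family kinase that many cell types express and that held 68.1% of the summed CPM of the list, fell from 21.8 ± 0.407 to 17.8 ± 0.479 CPM (SD, n = 3 each), a log2 fold change of -0.29 (adjusted p = 0.00217). Syk, the kinase recruited by the adaptors, had 87, 101 and 104 counts in the normal glucose samples and 57, 67 and 66 in the high glucose samples (a log2 fold change of -0.60, adjusted p = 0.02845), a call lost in 4 of 16 settings. Fcgr2b, the inhibitory Fc receptor, showed a log2 fold change of -0.22 (adjusted p = 0.149).

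Among the 6 tested genes, Cd14 was the only one to rise. The gene lies on the minus strand of chromosome 18 from 36725067 to 36726798 (ENSMUSG00000051439). It had 1259, 1270 and 1203 counts in the normal glucose samples and 2990, 2455 and 2853 in the high glucose samples, or 10.05, 8.95 and 9.39 CPM and 21.1, 21.1 and 21.2 CPM. The high glucose samples were nearly equal once scaled, and each exceeded every normal glucose sample. The mean rose 2.23-fold, from 9.47 ± 0.554 to 21.1 ± 0.0449 CPM (SD, n = 3 each). The log2 fold change was 1.16 (SE 0.063, 95% confidence interval 1.02 to 1.30, adjusted p = 5.9e-07), and 310 of the 3212 higher genes rose by more.

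The genes that work with Cd14 in lipopolysaccharide sensing formed a list of 11, and each passed the filter. The lowest, Ticam2, had between 8 and 25 counts per sample and shares 838 bp of exon with Tmed7 on the same strand. Of the 11 genes, 1 was lower and 3 were higher, and the median log2 fold change was 0.12. With 14.5% of all tested genes lower and 16.9% higher, nothing about the list as a group is read from these counts. Lbp, the carrier that delivers lipopolysaccharide to Cd14, had 83.6, 88.5 and 89.5 CPM in normal glucose and 324, 326 and 350 CPM in high glucose. It rose from 87.2 ± 3.18 to 333 ± 14.65 CPM (SD, n = 3 each), with a log2 fold change of 1.93 (SE 0.057, adjusted p = 3.0e-08). Lbp exceeded Cd14 3.31 ± 0.295 fold per length in normal and 5.66 ± 0.237 fold in high glucose (SD, n = 3 each), without overlap between the groups. Tlr4, the signaling receptor, had 24.9 ± 4.27 and 27.4 ± 1.99 CPM (SD, n = 3 each) with overlapping groups (log2 fold change 0.14, adjusted p = 0.356). The ratio of Cd14 to Tlr4 per length accordingly rose from 1.26 ± 0.292 to 2.48 ± 0.173 (SD, n = 3 each), and its groups did not overlap. Myd88, the adaptor below Tlr4, rose by 0.34 on the log2 scale (adjusted p = 5.0e-04), and 290 bp of its exons are shared with Acaa1a on the opposite strand. Traf6, the ubiquitin ligase further down, showed a log2 fold change of 0.22 (adjusted p = 0.0241), and Ly96, the partner of Tlr4 that binds the lipid, one of -0.26 (adjusted p = 0.0472), but these calls were lost in 9 and 10 of 17 settings. Irak1, the most abundant kinase of the pathway in CPM, showed a log2 fold change of 0.050 (adjusted p = 0.462), which turned negative when counts were scaled by library size alone.

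**Figure D3:**
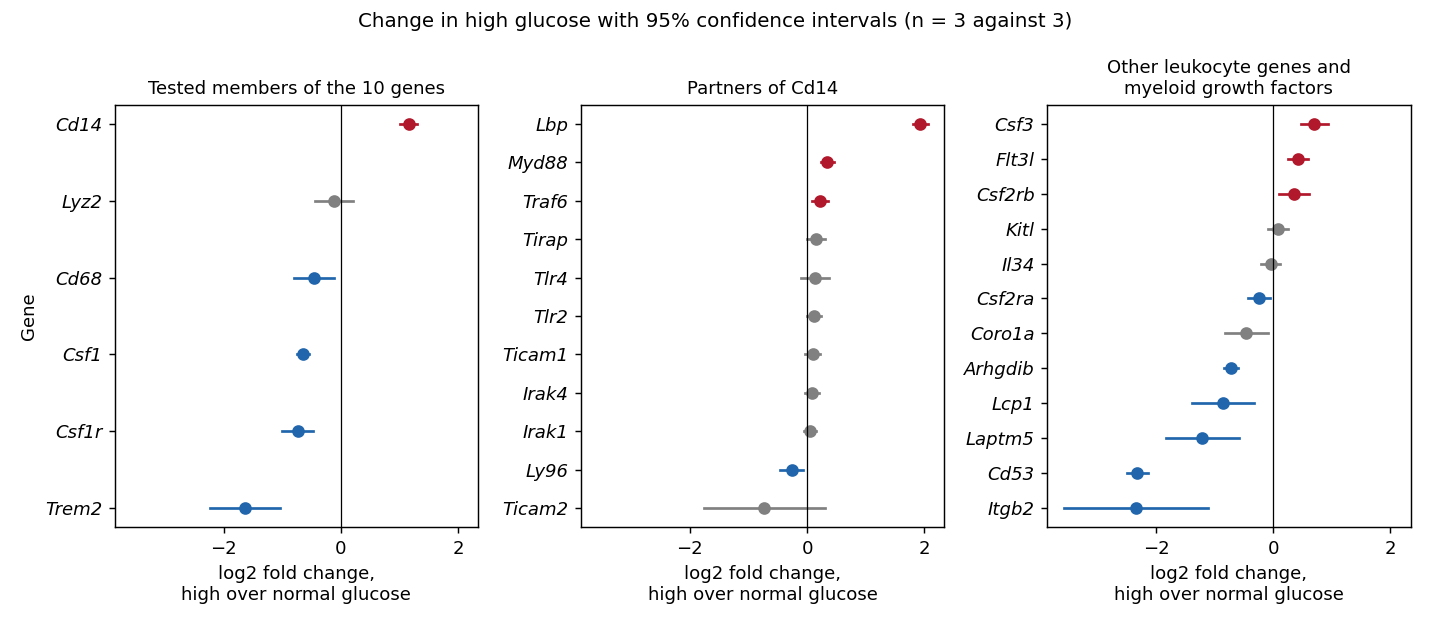
Log2 fold change of high over normal glucose with 95% confidence intervals (n = 3 against 3) for the 6 tested members of the 10 genes, the partners of Cd14, and other leukocyte genes together with myeloid growth factors and receptors. Red marks genes called higher, blue genes called lower and grey genes that did not pass the threshold; Cd14 and Lbp lie to the right, Cd53, Itgb2 and Trem2 to the left.

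Cd68, a heavily glycosylated protein of lysosomes and endosomes that is related to Lamp1, lies on the minus strand of chromosome 11 from 69664213 to 69666153 (ENSMUSG00000018774). It had 155, 210 and 212 counts in the normal glucose samples and 175, 114 and 130 in the high glucose samples, or 1.24, 1.48 and 1.66 CPM and 1.23, 0.980 and 0.964 CPM. The groups were barely apart, since the lowest normal glucose sample and the highest high glucose sample, both replicate 1, nearly met. The log2 fold change was -0.46 (SE 0.155, 95% confidence interval -0.80 to -0.11) with an adjusted p of 0.04625. The call was lost without normal glucose replicate 2 (adjusted p = 0.0867) or 3 (0.150), and without high glucose replicate 2 (0.121) or 3 (0.146). It was also lost with a block for the replicate number (adjusted p = 0.0903) and without a filter on low counts (0.0799). Eif4a1, a translation factor gene that ends 782 bp upstream on the same strand, showed a log2 fold change of -0.15 (adjusted p = 0.0714). It was called lower in 7 of 17 settings.

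Lyz2, the lysozyme of myeloid cells, lies on the minus strand of chromosome 10 from 117277331 to 117282321 (ENSMUSG00000069516). It had 205, 242 and 256 counts in the normal glucose samples and 192, 220 and 227 in the high glucose samples, or 1.78 ± 0.192 and 1.64 ± 0.272 CPM (SD, n = 3 each). The groups overlapped, and the log2 fold change of -0.12 (SE 0.146, 95% confidence interval -0.44 to 0.21) fell short of the threshold (adjusted p = 0.578). Lyz1, a near-identical neighbour 5475 bp upstream on the same strand, had between 3 and 7 counts in each sample, and reads that fit both genes may have been split between them.

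Among 10 relatives of Cd68 and Lyz2 and other lysosomal genes, 8 were tested, 1 was lower and 2 were higher, with a median log2 fold change of -0.090. Lamp1, the main glycoprotein of the lysosomal membrane, fell by 0.41 on the log2 scale, from 938 ± 23.7 to 706 ± 11.3 CPM (SD, n = 3 each; adjusted p = 1.3e-04). The cathepsin gene Ctsb, the most abundant of the list in CPM, rose by 0.33 (adjusted p = 6.3e-04), and 774 bp of its exons are shared with Fdft1 on the opposite strand. Lamp2 was higher by 0.25 (adjusted p = 0.0148), a call lost in 6 of 17 settings. Ctsl showed a log2 fold change of -0.17 (adjusted p = 0.0635) and was called lower in 7 of 17 settings. Its exons share 1742 bp with Gm47123 on the opposite strand. These counts lie near the shares of all tested genes (14.5% lower and 16.9% higher), and nothing about lysosomal genes as a group is read from them. Cd68 made up 0.00330 ± 4.1e-04 of the Lamp1 level per length in normal and 0.00320 ± 5.1e-04 in high glucose (SD, n = 3 each).

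Ptprc (ENSMUSG00000026395, chromosome 1 from 138062861 to 138175708, minus strand) had 16 counts in normal glucose replicate 1 and 0 in the other samples. Adgre1 (ENSMUSG00000004730, chromosome 17 from 57358691 to 57483527, plus strand) had 3 counts in normal glucose replicate 2 and 0 elsewhere. Together Ptprc, Adgre1, Tyrobp and Fcer1g had 19, 8 and 6 counts in the normal glucose samples and 0, 6 and 4 in the high glucose samples. With totals this small no change was read from them. A two-sided exact permutation test over the samples gave p = 0.1 for Csf1, Csf1r, Trem2, Cd14 and Cd68, the smallest value that 3 samples against 3 allow, p = 0.5 for Lyz2 and p = 0.7 for Fcer1g.

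The summed CPM combined opposite movements within the set. For the 9 genes other than Csf1, the sum was 20.1, 17.9 and 19.1 CPM in normal glucose and 27.0, 27.4 and 27.8 CPM in high glucose, with Cd14 supplying 65.8% of it over all samples. Without Cd14, the sum of the remaining 8 genes was 10.05, 8.96 and 9.67 CPM in normal glucose and 5.96, 6.30 and 6.66 CPM in high glucose. The sum therefore rose or fell depending on whether 1 gene was included. The ratio of Cd14 to Csf1r per length went from 5.64 ± 0.313 to 21.05 ± 2.45 (SD, n = 3 each).

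Most of a list of 20 further genes that define macrophages did not pass the filter. Of these, 6 were tested, 1 was lower and 1 was higher, near the 14.5% and 16.9% of all tested genes, and the median log2 fold change was 0.022. The complement genes C1qb and C1qc, the lectin gene Clec4n and the costimulatory gene Cd86 had 0 counts in all samples. C1qa had 3 counts in a single normal glucose sample. The list summed to 4.29, 4.36 and 4.46 CPM in normal glucose and 4.12, 4.15 and 4.01 CPM in high glucose. Mpeg1, the perforin-like gene of phagocytes, supplied 69.8% of it and had 3.17 ± 0.211 and 2.73 ± 0.0438 CPM (SD, n = 3 each; log2 fold change -0.22, adjusted p = 0.114). Mrc1, the mannose receptor, had 41, 25 and 22 counts in the normal glucose samples and 13, 9 and 11 in the high glucose samples (a log2 fold change of -1.41, adjusted p = 0.0135). Cd74, the invariant chain of antigen presentation, moved the other way, from 41, 30 and 39 counts to 86, 82 and 72 (log2 fold change 1.13, adjusted p = 0.00298). Mrc1 reached 10 counts in every normal but not in every high glucose sample. It passed the filter through the group where it was higher, so the count and median of the list carry no weight of their own.

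In a list of 15 genes that leukocytes of many kinds express, 6 were tested, 5 were lower and 0 were higher (against 14.5% and 16.9% of all tested genes), with a median log2 fold change of -1.04. That list summed to 239.7, 222 and 236 CPM in normal glucose and 132, 136 and 138 CPM in high glucose. Arhgdib made up 94.5% of this sum and fell from 216.5 ± 10.00 to 132 ± 3.01 CPM (SD, n = 3 each), a log2 fold change of -0.72 (adjusted p = 4.9e-06). Cd53, a tetraspanin known from leukocytes, had 1676, 2053 and 1756 counts in the normal glucose samples and 406, 333 and 352 in the high glucose samples. Its groups lay far apart, with a log2 fold change of -2.32 (SE 0.080, adjusted p = 4.1e-08). The lysosomal adaptor gene Laptm5 (-1.21, adjusted p = 0.00809) and the actin-bundling gene Lcp1 (-0.86, adjusted p = 0.0194) were lower from no more than 87 counts in any sample, and the Lcp1 call was lost in 4 of 16 settings. Itgb2, the beta chain of leukocyte integrins, had 47, 81 and 70 counts in the normal glucose samples and 23, 0 and 16 in the high glucose samples (a log2 fold change of -2.34, adjusted p = 0.00903), and its call was lost with DESeq2 (adjusted p = 0.108). Like Mrc1 and Ms4a2, Itgb2 did not reach 10 counts in every high glucose sample and passed the filter through the normal glucose group, so the count and median of the list carry no weight of their own. Cd52 was at 0 in every sample, and Dock2, Vav1, Was and Rac2 had at most 3 counts. The Cd53 and Arhgdib levels thus stood beside Ptprc counted in 1 sample only and Vav1 and Rac2 at or near 0, and the part of leukocytes in the fall of Csf1r, Trem2 and Cd68 was not tested.

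Markers of other immune cells gave mixed values, with few genes tested in each list (of all tested genes, 14.5% were lower and 16.9% higher). Of 10 T cell genes, 2 were tested (Lck and Zap70, log2 fold changes 0.12 and 0.33, adjusted p = 0.656 and 0.368), and Cd3e, Cd3d, Cd3g and Cd8a were at 0. Of 6 B cell genes, Cd79a alone was tested (0.33, adjusted p = 0.559), Cd79b had at most 8 counts in any sample, and Ms4a1 was at 0. Of 9 neutrophil genes, 3 were tested, 1 was lower and 1 higher. S100a8 fell from 6.73 ± 0.546 to 2.39 ± 0.284 CPM (SD, n = 3 each; log2 fold change -1.50, adjusted p = 5.1e-06), while S100a9, whose protein pairs with that of S100a8, was at 0 in every sample. Camp, an antimicrobial peptide gene, rose by 0.55 (adjusted p = 0.00229). Of 8 mast cell genes, 3 were tested and 1 was lower, Ms4a2, with 16, 33 and 25 counts against 11, 5 and 6 (log2 fold change -1.72, adjusted p = 0.00785). Ms4a2 reached 10 counts in every normal but not in every high glucose sample. It passed the filter through the group where it was higher, so the count of mast cell genes carries no weight of its own. Mcpt4 and Tpsb2 were at 0, and the transcription factor gene Gata2, with 94.0% of the summed CPM of that list, showed a log2 fold change of -0.17 (adjusted p = 0.127). Hdc, the histidine decarboxylase gene, had between 19 and 50 counts (log2 fold change 0.35, adjusted p = 0.4345). Of 10 dendritic cell genes, 5 were tested, Clec9a was lower (-1.48, adjusted p = 0.00141) and Zbtb46 higher (0.56, adjusted p = 0.00877, a call lost in 1 of 17 settings). Cd207, Flt3, Cd209a and H2-Aa were at 0. Other class II genes of that list were counted. H2-Ab1, with 78.4% of its summed CPM, was at 11.1 ± 0.211 CPM in normal and 11.8 ± 0.243 in high glucose (SD, n = 3 each; log2 fold change 0.085, adjusted p = 0.332), a sign that turned when counts were scaled by library size alone. H2-Eb1 had between 45 and 79 counts per sample.

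**Figure D4:**
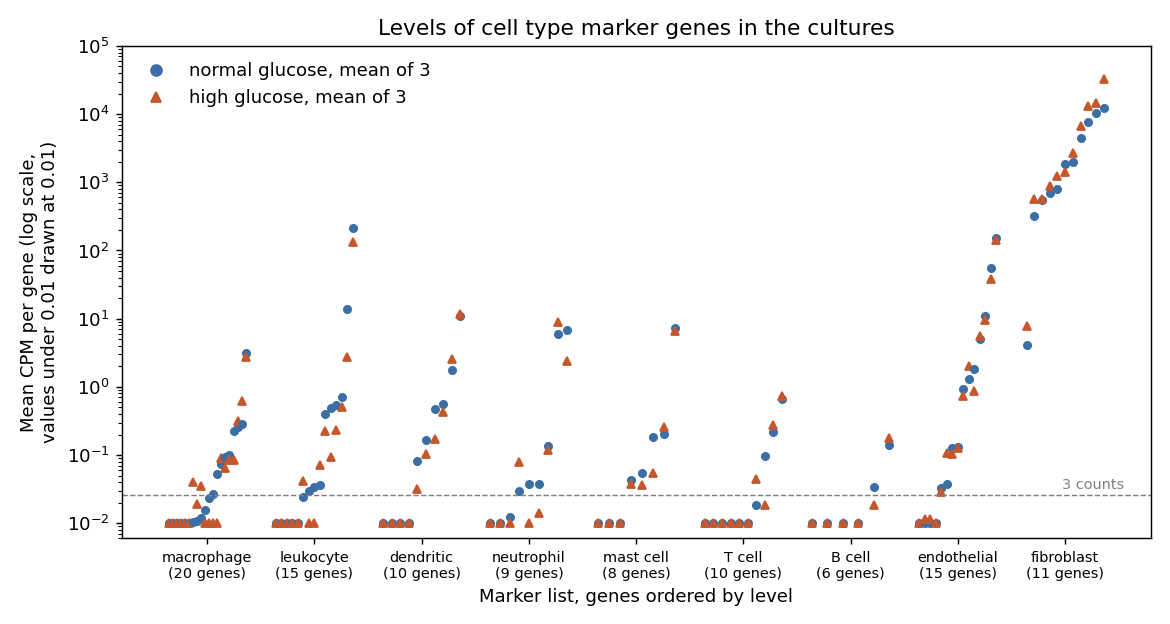
Mean CPM of each gene in 9 lists of cell type markers, on a log axis with values under 0.01 drawn at 0.01, with circles for normal glucose and triangles for high glucose (means of 3 samples). The dashed line marks 3 counts in the sample where they are worth most; macrophage and other immune lists lie mostly near or below it, and every fibroblast gene lies above 1 CPM.

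Endothelial and fibroblast genes were counted in the same samples, and their calls stand beside the 14.5% lower and 16.9% higher of all tested genes. Of 15 endothelial genes, 10 were tested, 3 were lower and 2 were higher, with a median log2 fold change of -0.19. They summed to 216, 234 and 243 CPM in normal glucose and 199.7, 194 and 199.5 CPM in high glucose, 68.9% of it from Eng, a receptor of the TGF-beta family (log2 fold change -0.14, adjusted p = 0.113). Flt1 and Cdh5 fell by 0.53 and 1.03 on the log2 scale (adjusted p = 3.0e-05 and 1.4e-04). Egfl7 was the other gene called lower (-0.23, adjusted p = 0.0346), a call lost in 6 of 17 settings. Erg, with at most 15 counts in any sample, showed a log2 fold change of 1.45 (adjusted p = 0.0453), a call lost in 11 of 15 settings. Erg reached 10 counts only in the high glucose samples and so passed the filter through the group where it was higher. Pecam1 reached 10 counts in every normal but not in every high glucose sample. The count and median of the endothelial list therefore carry no weight of their own. Tek, which encodes an angiopoietin receptor, was the other gene called higher, from 1.29 ± 0.134 to 2.04 ± 0.127 CPM (SD, n = 3 each; log2 fold change 0.66, adjusted p = 0.00219). All 11 fibroblast genes were tested, of which 1 was lower and 9 were higher, with a median log2 fold change of 0.59. Their sum was 42282, 39435 and 42625 CPM in normal glucose and 74632, 76919 and 71962 CPM in high glucose. Col3a1, the collagen gene that supplied 38.75% of it, rose from 12418 ± 650.5 to 32509 ± 1662 CPM (SD, n = 3 each), and Col1a2 rose by 0.48 on the log2 scale (adjusted p = 1.5e-04). None of the fibroblast genes was at 0. Their part in the rise of Cd14 and Lbp, genes that moved in the same direction, was not tested.

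The genes whose log2 CPM (with 0.5 CPM added) was most like the log2 sum of the 9 genes other than Csf1 over the 6 samples were Adh1, Phkg1, Saa3, Igfbp3, Fxyd6, Oat, Glul, Wfdc21, Ctsf and Tmem176a. Their Pearson r lay between 0.9976 and 0.9995, and 101 genes exceeded 0.99. This is a description over 6 samples that fall into the 2 glucose groups, and the sum follows Cd14. Adh1, an alcohol dehydrogenase, went from 82.8 to 172 CPM, and Saa3, an acute phase serum amyloid A gene, from 4507 to 11910 CPM, with log2 fold changes of 1.05 and 1.40 (adjusted p = 2.4e-06 for each). Wfdc21 showed a log2 fold change of 1.39 (adjusted p = 1.1e-05). Igfbp3 and Oat, both with log2 fold changes of 0.22, did not pass the threshold when counts were scaled by library size alone.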

How the data were processed

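RNA was sequenced from 6 samples, 3 at 5 mmol/L and 3 at 20 mmol/L glucose, grouped by their labels. The authors deposited whole-number counts per gene, without normalization. Their processing notes name Trimmomatic, HISAT2, StringTie, edgeR and the build GRCm38, and whether strand was used in counting is not given in the sources used here. For RNA isolation and sequencing, the labels name TRIzol and the DNBSeq platform, whereas the paper's methods name a QIAGEN kit and an Illumina instrument. Low counts may hold both reads of a pair, so halved counts were tried.

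Low-count genes were removed with filterByExpr (at least 10 counts, total of at least 15) of edgeR 4.0.16 in R 4.3.3. Groups were compared with TMM factors, the quasi-likelihood test and Benjamini-Hochberg adjustment over all tested genes, with a threshold of 0.05. The log2 fold changes are high over normal glucose, and standard errors were taken from the test statistic. CPM are counts per 1000000 of the library total times its TMM factor, and exon lengths and positions are those of GENCODE for GRCm38. Replicates differed by more than sampling noise (chi-square per degree of freedom of 9.03 or more). The fit was checked on simulated counts, and no outcome of that check is used here. Alternatives were other normalizations, filters and tests (DESeq2 1.42.0 among them), the replicate block, a threshold of 0.01 and each sample left out.

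The 10 genes and the lists (macrophage, leukocyte, adaptor pathway, growth factor, lipopolysaccharide, lysosome, T cell, B cell, neutrophil, mast cell, dendritic cell, endothelial and fibroblast genes) were chosen with earlier results of these data known. From each list, the 2 genes with the highest mean CPM and called genes with an absolute log2 fold change of at least 1, at most 5, were named by rule. Other members were named after their values were seen. No set was tested.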

Additional observations from a re-analysis of the deposited data

How the results depend on the processing

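Over 17 alternatives, Csf1, Csf1r, Cd14 and Lyz2 kept both direction and call, with log2 fold changes of -0.76 to -0.64, -0.86 to -0.65, 1.04 to 1.19 and -0.24 to -0.013. Trem2 did so in the 16 that tested it (-1.85 to -1.36), since a minimum of 1 CPM in 3 samples left it out. Cd68 (-0.46, adjusted p = 0.04625) lost its call without a filter on low counts (-0.48, adjusted p = 0.0799), at a threshold of 0.01 (-0.46) and in 4 of the 6 fits that left out a sample, which ranged from -0.60 to -0.37 (adjusted p up to 0.150). The cause was not tested.

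Under library size scaling 4884 genes were lower and 1819 higher, which moved the share of calls that were lower from 46.2% to 72.9% and the median log2 fold change from 0.0062 to -0.11. With upper quartile scaling that share was 56.5%. Library size scaling also gave 5 lower lysosomal genes and 4 lower adaptor pathway genes in place of 1 and 2. At a threshold of 0.01, 1671 genes were lower and 1946 higher. With a sample left out, between 2048 and 3065 genes were lower and between 1988 and 3149 higher, with 2010 without high glucose replicate 1 and 1988 without high glucose replicate 3. Signs turned under library size scaling for Kitl (-0.037), Irak1 (-0.064), H2-Ab1 (-0.029) and Pdgfrb (-0.033). With a sample left out, Kitl ranged from -0.0041 to 0.14, Lck from -0.0092 to 0.25 and Pdgfrb from -0.0047 to 0.12, the lowest values being those without high glucose replicate 2 (Kitl, Lck) or normal glucose replicate 1 (Pdgfrb). None of these genes passed the threshold. Of 1597 other values over the alternatives, 1426 kept direction and call, or stayed within 1.5 times for counts of a list.

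A block for the replicate number gave Cd68 a log2 fold change of -0.46 (adjusted p = 0.0903), and the other tested members of the 10 genes kept their calls. The block called 2418 lower and 2909 higher genes, of which 2375 and 2835 were also called without it. Deviations of same-numbered samples correlated at -0.025, 0.0038 and 0.013, and 2 of the 6 samples correlated best with their own number. A pairing by number was thus not detected, but with 3 samples per group these values cannot exclude one. Depth limits Ptprc, Adgre1, Tyrobp and Fcer1g, for which a count of 0 allows up to 0.0258 CPM if counting error alone is considered.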
